A study of Homo sapiens with 4 samples.

Results

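The genes described here are 9 cell surface antigens of epithelial tumours: the carcinoembryonic antigen relatives CEACAM1, CEACAM5, CEACAM6 and CEACAM7, the epithelial cell adhesion molecule EPCAM, the tetraspanins TSPAN1 and TSPAN8, and the adhesion molecules CD24 and CD44. They were taken by gene symbol from a table of 58336 genes, and each symbol matched 1 gene. They were chosen by symbol with their count levels in both lines already known, so differences between the cell lines are given as a description, without a test. Of the 9 genes, 8 passed the filter on low counts and are among the 18278 genes tested; CEACAM7 did not. The name of the group holds for 8 of them in at least 1 line, since CEACAM7 had 1 read in all.

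RNA sequencing was done on 2 human gastric cancer cell lines, AGS, an epithelial adenocarcinoma line, and HGC-27, an undifferentiated carcinoma line. Both are labelled wild type. Each line gave 1 library from cells kept for 1 day in 10 nM estradiol (E2), the main oestrogen, and 1 from control cells labelled nc, for which no vehicle is named. The libraries held 28062811 counts in AGS with estradiol, 26306803 in AGS control, 24597379 in HGC-27 with estradiol and 28734374 in HGC-27 control. There were thus 2 estradiol and 2 control libraries, paired by line, and nothing in the labels says that they came from separate experiments or which batch each belonged to. With 1 residual degree of freedom per gene, standard errors and p-values rest on a spread pooled over genes, and speak of these libraries alone.

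Epithelial and mesenchymal markers, except CDH2, separated the lines. The 6 epithelial markers (KRT8, KRT18, KRT19, CDH1, CLDN4 and ELF3) summed to 4240 and 3980 TPM (a transcript level: counts divided by gene length and scaled to an equal sum in each library) in AGS with estradiol and AGS control, against 38.3 and 35.1 TPM in the HGC-27 libraries in the same order. Keratin KRT19, a defining epithelial gene, had 2 and 1 counts in HGC-27. The 5 mesenchymal markers (VIM, ZEB1, FN1, CDH2 and SPARC) summed to 2.42 and 2.19 TPM in AGS against 1220 and 1200 TPM in HGC-27, and the 5 fibroblast markers to 11 and 10.3 TPM against 760 and 718 TPM. Leukocytes and endothelium also make some of these antigens. The leukocyte gene CD3E and the endothelial gene KDR had 0 counts in all 4 libraries, and PTPRC had 0 and 3 counts for AGS against 22 and 6 in HGC-27. The 7 leukocyte markers summed to 346 and 465 TPM in AGS, nearly all of it LYZ, which stomach epithelium makes too, and to 19.5 and 19.4 TPM in HGC-27. Endothelial markers (4 genes) stayed at or under 0.211 TPM and erythroid markers (3 genes) at or under 2.49 TPM in each library.

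CEACAM proteins are immunoglobulin-like adhesion molecules at the apical face of epithelia. CEACAM1 spans the membrane and signals through its tail, whereas CEACAM5 (the serum tumour marker CEA), CEACAM6 and CEACAM7 hang from the membrane by a lipid, the glycosylphosphatidylinositol (GPI) anchor, as does the small mucin-like protein CD24. EPCAM is a homophilic adhesion protein of simple epithelia whose tail can be released by proteases, tetraspanins are small proteins that cross the membrane several times and gather integrins and other partners into patches, and CD44 is the main receptor for hyaluronan, a matrix sugar polymer. All are widely used to mark carcinoma cells, and CD24, CD44 and EPCAM also to sort cells with stem cell features.

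The upstream sequences of the CEACAM genes are shown because the 4 genes are close relatives that differ in level. RefSeq promoter windows (GRCh38.p14, 250 bases before to 50 after an annotated start) were matched for 8 of the 9 genes, with 11 windows in all. The other gene was EPCAM. Of the windows printed, those of CEACAM6, CEACAM1, CEACAM7 and TSPAN8 lie wholly inside the gene spans given below, not at their outer ends. In each line the capitals mark CACGTG, the E-box bound by upstream stimulatory factors, or the 6 bases that align with it. CEACAM5 lies at chr19:41708376-41708675 (plus strand), CEACAM6 at chr19:41755280-41755579 (plus strand), CEACAM1 at chr19:42528432-42528731 (minus strand) and CEACAM7 at chr19:41688221-41688520 (minus strand).
CEACAM5: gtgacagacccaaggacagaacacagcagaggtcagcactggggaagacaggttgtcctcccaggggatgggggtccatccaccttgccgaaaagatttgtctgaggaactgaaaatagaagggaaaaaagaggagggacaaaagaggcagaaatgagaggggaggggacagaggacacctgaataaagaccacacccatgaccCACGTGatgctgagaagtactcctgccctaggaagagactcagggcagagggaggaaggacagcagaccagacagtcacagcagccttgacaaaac
CEACAM6: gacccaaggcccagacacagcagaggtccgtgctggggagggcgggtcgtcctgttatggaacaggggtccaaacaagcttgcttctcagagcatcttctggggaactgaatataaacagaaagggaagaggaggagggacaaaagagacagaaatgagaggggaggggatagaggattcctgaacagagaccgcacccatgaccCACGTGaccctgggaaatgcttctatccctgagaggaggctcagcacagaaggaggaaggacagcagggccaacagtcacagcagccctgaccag
CEACAM1: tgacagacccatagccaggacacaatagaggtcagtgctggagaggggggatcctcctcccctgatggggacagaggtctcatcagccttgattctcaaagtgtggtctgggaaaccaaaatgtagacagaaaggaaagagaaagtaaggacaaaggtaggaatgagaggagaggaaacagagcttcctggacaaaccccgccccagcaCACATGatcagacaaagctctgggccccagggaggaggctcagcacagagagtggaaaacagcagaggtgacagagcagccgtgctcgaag
CEACAM7: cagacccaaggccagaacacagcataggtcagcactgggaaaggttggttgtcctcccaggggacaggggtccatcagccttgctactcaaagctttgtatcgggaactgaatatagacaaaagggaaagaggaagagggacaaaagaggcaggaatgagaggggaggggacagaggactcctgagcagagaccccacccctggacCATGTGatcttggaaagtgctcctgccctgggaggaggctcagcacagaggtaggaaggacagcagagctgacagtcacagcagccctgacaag
The windows of CEACAM5 and CEACAM7 were identical at 84.7% of their aligned bases, those of CEACAM6 and CEACAM7 at 81.5%, those of CEACAM5 and CEACAM6 at 78.8% and those of CEACAM5 and CEACAM1 at 72%. CACGTG, which reads the same on both strands, began at position -46 in CEACAM5 and -45 in CEACAM6 and was in 2 of the 11 windows; 7.26% of all 35116 windows hold it. CEACAM1 has CACATG and CEACAM7 CATGTG at the aligned place. The oestrogen response element, GGTCA and TGACC with 3 bases between, was in 0 of the 11 windows on either strand, and in 0.057% of all windows. The single arm AGGTCA, searched on both strands, was in 5 of the 11, those of CEACAM1, CEACAM5, CEACAM7, TSPAN1 and CD44, and in 13.8% of all windows. In CEACAM1, CEACAM5 and CEACAM7 it began at -222, -221 and -225 in similar sequence. These matches are not independent, so nothing is read from 5 of 11 beside that share. The GC box GGGCGG was in 6 of the 11 windows (45% of all) and TATAAA in 1, that of CEACAM6 (11.5% of all). A match is a stretch of letters, and no protein binding was measured.

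TSPAN8 is shown for a repeat in its window. It lies at chr12:71157760-71158059 (minus strand), and the capitals mark GTTAAT, the start of the sequence bound by HNF1 factors, searched for after the repeat had been seen.
TSPAN8: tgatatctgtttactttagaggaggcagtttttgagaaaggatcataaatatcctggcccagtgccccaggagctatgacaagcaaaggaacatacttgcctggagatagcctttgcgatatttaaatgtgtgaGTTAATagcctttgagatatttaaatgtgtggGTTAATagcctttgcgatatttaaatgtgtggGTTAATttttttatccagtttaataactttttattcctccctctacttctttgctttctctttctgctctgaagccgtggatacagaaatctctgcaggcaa
GTTAAT occurred 3 times in this window and in none of the other 10 windows, and 6.88% of all windows hold it on either strand. The longest stretch present more than once in this window was 27 bases, against 7 to 9 bases in the other 10.

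Of the 9 genes, 7 were higher in AGS, 1 was higher in HGC-27, and 1 was at the limit of detection in both. EPCAM, CD24, CEACAM6 and TSPAN8 stood between 259 and 695 TPM in AGS. In HGC-27 the highest were CD24 and CD44, and CEACAM5, CEACAM6 and TSPAN8 had 0 counts. All 8 tested genes were more than 2-fold apart between the lines, 7 higher in AGS and 1 lower; of all tested genes 19% were more than 2-fold higher in AGS and 27.3% more than 2-fold lower. Because line differences were known when the list was made, nothing is read from these counts. In bulk RNA, fewer cells that carry a transcript and less transcript per cell cannot be told apart.

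**Figure D1:**
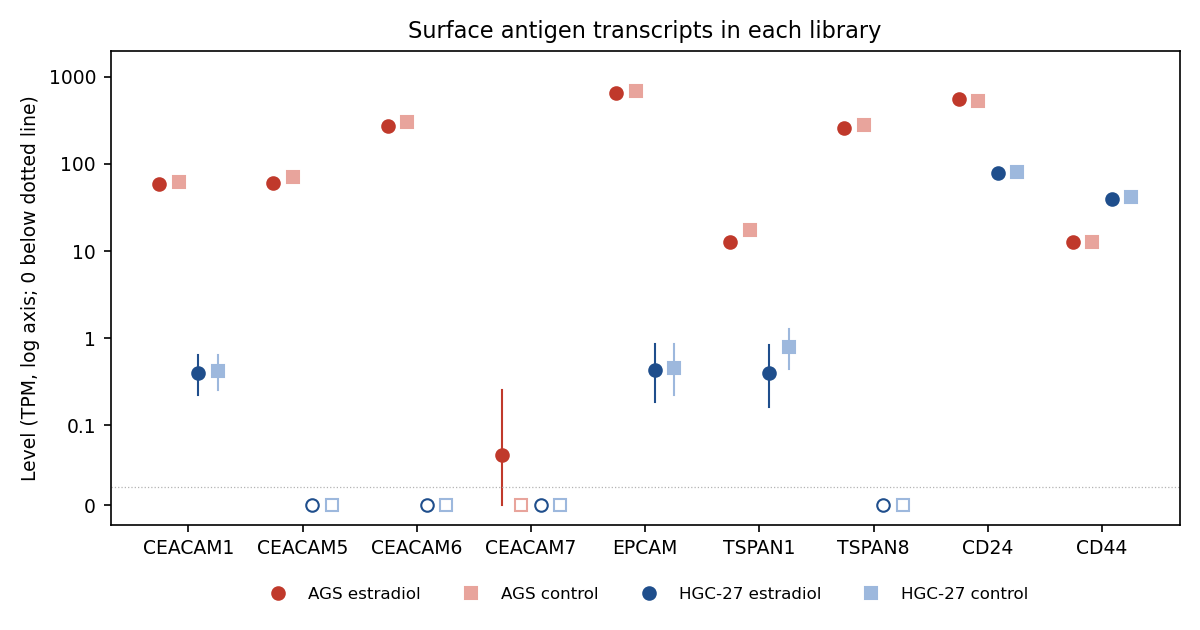
Levels of the 9 genes in TPM on a log axis, with 95% Poisson counting intervals, which cover counting error only. Circles are estradiol and squares control libraries, red for AGS and blue for HGC-27; open symbols below the dotted line are at 0 counts. The estradiol and control symbols of a line lie side by side, while the lines lie far apart for all genes but CD24, CD44 and CEACAM7.

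Among the CEACAM genes, CEACAM6 was the most abundant. CEACAM6 (ENSG00000086548, chromosome 19, 41750977 to 41772208) had 6955 counts (276 TPM) in AGS with estradiol and 7118 counts (300 TPM) in AGS control, and 0 counts in both HGC-27 libraries. Against a floor of 3 counts over both HGC-27 libraries, it was at least 4720-fold higher in AGS. CEACAM5 (ENSG00000105388, chromosome 19, 41708585 to 41729798) had 1653 and 1845 counts in AGS, 59.8 and 70.9 TPM, and 0 in both HGC-27 libraries, at least 1170-fold higher in AGS. Between the 2 AGS libraries these genes differed far less than between the lines.

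CEACAM1 (ENSG00000079385, chromosome 19, 42507304 to 42561234), the family member that signals to inhibit, was the one CEACAM of the list with reads in HGC-27. It had 2673 and 2660 counts in AGS (58.7 and 62 TPM) against 16 and 20 counts in HGC-27 (0.393 and 0.419 TPM). The ratio of the summed, library-scaled counts was 149 (95% counting interval 107 to 213). CEACAM7 (ENSG00000007306, chromosome 19, 41673307 to 41706976), a GPI-anchored protein of the colon, had 1 read in AGS with estradiol and 0 in the other 3 libraries, so no fold is given.

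CEACAM6 alone made up 69.1% of the summed TPM of the 12 CEACAM genes in AGS with estradiol and 68.5% in AGS control. CEACAM5 had 14.9% and 16.2%, and CEACAM1 14.7% and 14.1%. The sum itself was 400 and 438 TPM in AGS against 0.809 and 0.908 TPM in HGC-27, where CEACAM19 (51.5% and 53.9%) and CEACAM1 (48.5% and 46.1%) held it between them on 32 and 42 counts.

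Along chromosome 19 the expressed CEACAM genes did not form an unbroken block. In chromosomal order, CEACAM21 had 0 and 4 counts in AGS with estradiol and AGS control, CEACAM4 had 0 and 0, CEACAM7 had 1 and 0, then came CEACAM5 and CEACAM6 at 1653 to 7118, and CEACAM3 followed with 0 and 4. CEACAM8, beside CEACAM1, had 0 and 3. In HGC-27 each of CEACAM21, CEACAM4, CEACAM7, CEACAM5, CEACAM6, CEACAM3 and CEACAM8 had 0 counts in both libraries, while RPS19, a ribosomal protein gene between CEACAM3 and CEACAM1, had 7943 and 9067. Some reads can fall on several of these genes. Of the 31-base stretches of the longest coding transcript, 29.8% in CEACAM5, 15.8% in CEACAM6 and 8.37% in CEACAM1 occur in another gene; CEACAM6 shares 7% with CEACAM5. Exons of CEACAM5 (16.2% of their bases) and CEACAM6 (5.64%) also overlap AC243967.1, an annotated gene joining both, which had 0 counts in all libraries. The sources used here do not give how such reads were counted.

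**Figure D2:**
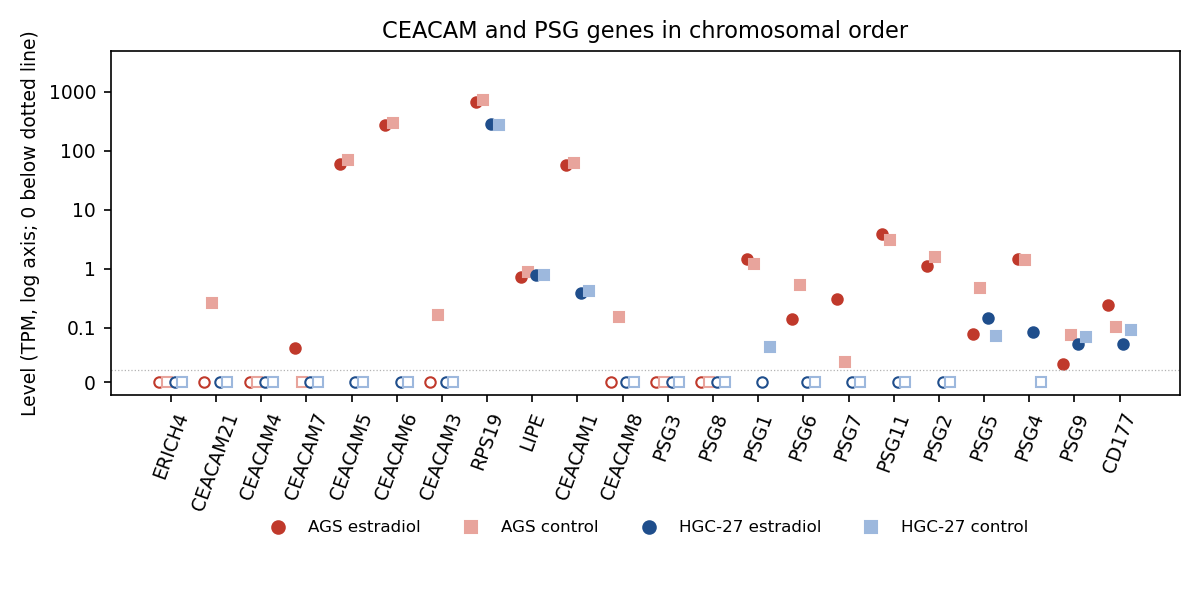
CEACAM and pregnancy-specific glycoprotein (PSG) genes in chromosomal order along chromosome 19, with ERICH4, RPS19, LIPE and CD177 as neighbours outside the family; the vertical axis is TPM (log axis), with symbols as in the plot of levels by library. CEACAM5, CEACAM6 and CEACAM1 stand between 58.7 and 300 TPM in AGS, while the other family genes stay at or under 3.9 TPM.

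EPCAM (ENSG00000119888, chromosome 2, 47345158 to 47387601) had the highest level of the 9 genes in AGS. It had 13659 and 13601 counts in AGS with estradiol and AGS control, 657 and 695 TPM, against 8 and 10 counts in HGC-27, 0.43 and 0.459 TPM. By TPM it ranked 113th of 24204 genes with a count in AGS with estradiol and 103rd of 23960 in AGS control. The ratio of the scaled sums was 1520 (counting interval 963 to 2570).

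The tetraspanins differed from each other by more than an order of magnitude in AGS. TSPAN8 (ENSG00000127324, chromosome 12, 71125085 to 71441898), a partner of integrins and of EPCAM in digestive tumours, had 5377 and 5500 counts in AGS (259 and 281 TPM) and 0 in both HGC-27 libraries, at least 3650-fold higher in AGS. Its annotated span covers that of LGR5, an intestinal stem cell receptor on the opposite strand with 6177 and 5914 counts for AGS against 1 and 0 in HGC-27. The exons of the genes share 0 bases in GENCODE release 29. TSPAN1 (ENSG00000117472, chromosome 1, 46175073 to 46185958), an epithelial tetraspanin, had 248 and 321 counts in AGS (12.7 and 17.5 TPM) against 7 and 16 in HGC-27 (0.401 and 0.782 TPM). The ratio of its scaled sums was 24.9 (counting interval 16.4 to 39.6), and its spread between the libraries of a line was wide, with 10.7 ± 2.39 CPM (counts scaled to library size) in AGS and 0.417 ± 0.193 CPM in HGC-27 (SD, n = 2 each).

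CD24 and CD44 were expressed in both lines, CD24 higher in AGS and CD44 higher in HGC-27. CD24 (ENSG00000272398, chromosome 6, 106969831 to 106975627), whose protein carries sugars read by selectins and Siglec receptors, had 14397 and 12598 counts in AGS (564 and 524 TPM) against 1778 and 2184 in HGC-27 (77.8 and 81.5 TPM). It was 6.85-fold higher in AGS (counting interval 6.63 to 7.08). CD44 (ENSG00000026508, chromosome 11, 35138870 to 35232402) had 1041 and 979 counts in AGS (12.6 TPM in each) against 2919 and 3592 in HGC-27 (39.6 and 41.5 TPM). Its ratio of AGS over HGC-27 was 0.312 (counting interval 0.297 to 0.328), which is 3.21-fold higher in HGC-27. Levels in both lines were known when these genes were chosen, so nothing is read from their line differences. Gene counts do not tell the CD44 splice forms apart. Of the stretches of the CD24 transcript, 12.6% occur in other genes, among them processed copies of CD24.

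**Figure D3:**
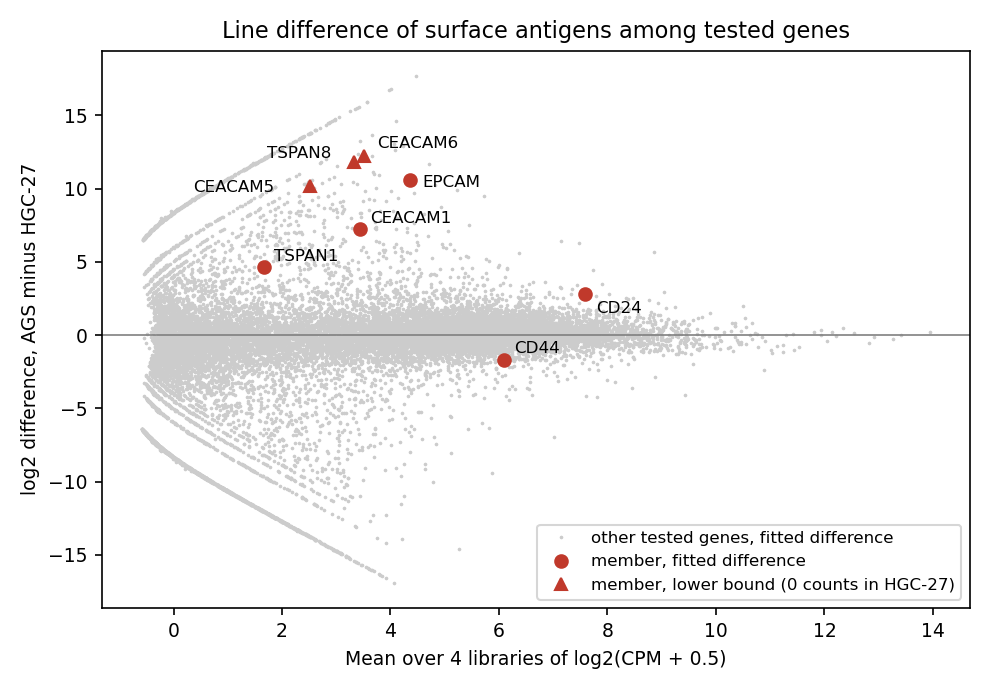
The log2 difference of AGS minus HGC-27 against the mean over 4 libraries of log2(CPM + 0.5), with each grey point 1 of the tested genes and the 8 tested members in red. Triangles are lower bounds for CEACAM5, CEACAM6 and TSPAN8 (10.2, 12.2 and 11.83), which had 0 counts in HGC-27; the grey points, also where a line had 0 counts, are fitted values and no bounds. CD44 at -1.68 is the member below 0.

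Fitted differences (edgeR, AGS minus HGC-27, log2 ± SE) were 10.56 ± 0.11 for EPCAM, 7.21 ± 0.13 for CEACAM1, 4.66 ± 0.29 for TSPAN1, 2.78 ± 0.06 for CD24 and -1.68 ± 0.07 for CD44. The estradiol libraries alone gave 4.91 for TSPAN1 and the control libraries alone 4.44. For CD24 these were 2.87 and 2.68, and for CD44 -1.63 and -1.72. Both treatments gave the line difference in the same direction for all 8. Since the line differences were known beforehand, that shared direction adds no support.

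The order of the levels depended on the line. In AGS it was EPCAM, CD24, CEACAM6, TSPAN8, CEACAM5, CEACAM1, TSPAN1, CD44 and CEACAM7 in both libraries. CEACAM5 and CEACAM1 overlapped in counting interval with estradiol (56.9 to 62.8 and 56.5 to 60.9 TPM), as did TSPAN1 and CD44 (11.2 to 14.4 and 11.9 to 13.4 TPM). In HGC-27, CD24 and CD44 came first, and EPCAM, TSPAN1 and CEACAM1 overlapped in both libraries. These values divide by the exonic length in the deposited table, which joins all transcripts. Divided by the longest coding transcript instead, a choice made after the data were seen, TSPAN8 stood at 430 and 467 TPM in AGS, above CEACAM6 at 312 and 339 TPM, and CEACAM1 at 92.1 and 97.3 TPM, above CEACAM5 at 69.7 and 82.7 TPM. CD44 stood at 69.1 and 72.4 TPM in HGC-27 and TSPAN1 at 18.6 and 25.6 TPM in AGS on that scale.

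None of the 8 tested genes passed an adjusted p of 0.05 over both lines (edgeR quasi-likelihood test blocked by line, Benjamini-Hochberg adjustment over all tested genes, adjusted p = 1 for each). Of all tested genes 0.153% passed, 0.115% higher and 0.0383% lower with estradiol. At an unadjusted p under 0.05 there were 2 in edgeR, 0 in DESeq2 and 2 in limma-voom, where 3.24%, 0.793% and 2.68% of all tested genes stood under it, and none of the 8 passed after adjustment with any of these tools. A p that misses the threshold does not show that a gene was unaffected. The lowest p belonged to CEACAM5 and TSPAN1.

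CEACAM5 had 59.8 CPM in AGS with estradiol and 71 CPM in AGS control, and 0 in HGC-27. Its fitted log2 change was -0.25 ± 0.11 (SE, edgeR, unadjusted p = 0.0292), and it rests on AGS alone; DESeq2 gave -0.04 with a standard error of 3.97. TSPAN1 had 8.97 CPM with estradiol and 12.4 CPM in control in AGS, and 0.28 and 0.553 CPM in HGC-27. Its fitted change was -0.52 ± 0.24 (unadjusted p = 0.0327 in edgeR), with both lines on the same side. CEACAM6 and TSPAN8 each had a fitted change of -0.12 ± 0.08, CEACAM1 of -0.08 ± 0.09, EPCAM of -0.08 ± 0.07, CD44 of -0.05 ± 0.07 and CD24 of 0.02 ± 0.05. With 0 counts in HGC-27, the values of CEACAM6 and TSPAN8 rest on AGS alone. Those of EPCAM (8 and 10 counts in HGC-27) and CEACAM1 (16 and 20) rest mostly on AGS.

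Within AGS, 6 of the 8 tested genes lay below control, with log2 ratios from -0.46 (TSPAN1) to -0.08. With 1 library per arm there is no test, and the intervals given are 95% counting intervals of the log2 ratio of estradiol over control. The interval lay below 0 for TSPAN1 (-0.46, -0.71 to -0.22), CEACAM5 (-0.25, -0.34 to -0.15), CEACAM6 (-0.12, -0.17 to -0.07), TSPAN8 (-0.12, -0.18 to -0.07), EPCAM (-0.08, -0.12 to -0.05) and CEACAM1 (-0.08, -0.16 to -0.004). It lay above 0 for CD24 (0.10, 0.07 to 0.14) and spanned 0 for CD44 (0.00, -0.13 to 0.13). Of tested genes with a mean of at least 10 counts in AGS, 13.6% had an interval below 0 and 12.5% above; at a mean of at least 200 counts, which all 8 have, the shares were 15.8% and 14.7%. The median log2 ratio of those 9851 genes was -0.003, with 51.3% of them below 0 and 95% of them between -0.28 and 0.25. CEACAM5 was inside that range, TSPAN1 below it, and the other 6 inside. The summed TPM of the epithelial markers was 4240 in AGS with estradiol and 3980 in AGS control. KRT8 (1670 and 1550 TPM) and KRT18 (1360 and 1220 TPM) made up most of that gap, while ELF3 (107 and 113 TPM) and CLDN4 (172 and 174 TPM) were lower with estradiol in this pair of libraries; their part in these results was not tested. Of the marker genes, lysozyme (LYZ), with 5004 counts in AGS with estradiol and 6329 in AGS control, passed the estradiol test as lower in edgeR (adjusted p = 0.000208) but not in DESeq2 (adjusted p = 1) or limma-voom (adjusted p = 0.99); its part in these results was not tested.

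In HGC-27, 4 of the 9 genes had a mean of at least 10 counts. CD44 had 117 CPM with estradiol and 124 CPM in control (log2 ratio -0.09, counting interval -0.16 to -0.02), where 11.3% of tested genes with at least 10 counts in the line had an interval below 0 and 10% above; at a mean of at least 200 counts, which CD44 and CD24 have, the shares were 15.9% and 10.6%. CD24 had 71.1 and 75.5 CPM (-0.09, -0.18 to 0.01). The ratio of CEACAM1 was -0.10 (-1.16 to 0.91) on 16 and 20 counts, and that of TSPAN1 -0.93 (-2.50 to 0.38) on 7 and 16. Changes inside these intervals were not detectable at this depth. Of the 4 genes with a mean of at least 10 counts in each line, 0 had an interval clear of 0 in both. Among 13882 tested genes at that depth, 1.53% were below 0 in both lines, 1.16% above 0 in both, 2.36% above 0 in AGS and below 0 in HGC-27, and 1.5% the other way round. CEACAM5, CEACAM6, CEACAM7 and TSPAN8 had 0 counts in both HGC-27 libraries, which allows up to 0.12 CPM with estradiol and 0.104 CPM in control. No estradiol library of HGC-27 therefore showed reads of a CEACAM gene of the GPI-anchored kind or of TSPAN8.

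**Figure D4:**
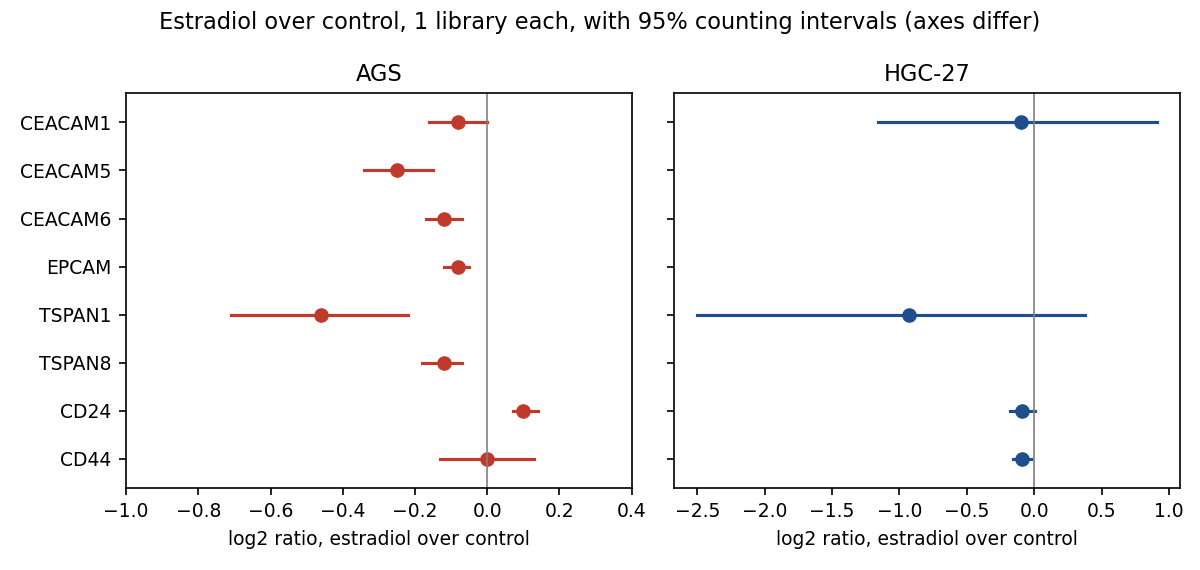
The log2 ratio of estradiol over control for members with a mean of at least 10 counts in the line, AGS on the left and HGC-27 on the right, with 1 library per arm and bars for 95% counting intervals; the horizontal axes differ. In AGS 6 of the 8 genes lie below 0 and CD24 above, where 51.3% of tested genes with a mean of at least 200 counts lie below 0. In HGC-27 the bars of CEACAM1 and TSPAN1 are wide.

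Related genes show how far the line difference went beyond the 9. In these lists none of the tested genes passed the estradiol test over both lines, each with an adjusted p of 1 in edgeR. Between the lines, 35.7% of all tested genes passed as higher in AGS and 41.5% as lower (edgeR quasi-likelihood test with treatment as a covariate, adjusted p under 0.05), and the median log2 difference of all tested genes was -0.1. The counts of a list are read beside these shares.

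Genes near 0 in 1 line passed the filter on low counts through the other line alone, so their direction was fixed by that filter and their number supports nothing. Of 8 other CEACAM genes, 2 were tested. CEACAM19, a distant family member, had 77 and 58 counts for AGS against 16 and 22 in HGC-27 (log2 difference 1.82 ± 0.41 SE, edgeR adjusted p = 1.66e-05). CEACAM18, which passed the filter through AGS alone, had 42 and 38 counts against 0 and 0, at least 26.8-fold higher. Pregnancy-specific glycoproteins, secreted placental relatives that lie next to CEACAM8, had 4 of 10 genes tested, each of which passed the filter through AGS alone and at low counts. PSG11 had 162 and 121 counts for AGS against 0 and 0 (at least 94.9-fold higher), PSG4 75 and 68 against 4 and 0, and PSG1 60 and 47 against 0 and 2.

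The other tetraspanins differed between the lines in both directions. Of 31 genes 24 were tested, 8 higher in AGS and 11 lower, with a median log2 difference of 0.00; 5 were more than 2-fold higher and 10 more than 2-fold lower. CD9, a partner of integrins and of EGFR ligands, was higher in AGS (2.92 ± 0.06, edgeR adjusted p = 6.47e-168), as was TSPAN15, a partner of the protease ADAM10 (3.57 ± 0.10). TSPAN7 was lower (-4.42 ± 0.59), with 0 and 6 counts for AGS against 65 and 68 in HGC-27. TSPAN32, a leukocyte tetraspanin, had 1 and 0 counts for AGS against 203 and 158. The broadly expressed CD63, CD81 and CD151 differed by 0.01, 0.08 and -0.01 on the log2 scale. Whether the difference of TSPAN1 and TSPAN8 is larger than that of the family was not tested.

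EPCAM-related genes were mostly higher in AGS, 12 of 15 against 2 lower (edgeR, adjusted p under 0.05), with a median log2 difference of 1.32. The surface protease matriptase, ST14, had 13681 and 13145 counts for AGS against 2 and 2 for HGC-27. Its inhibitor SPINT1 had 7884 and 7328 counts for AGS against 3 and 0 for HGC-27, and its inhibitor SPINT2 had 12347 and 12214 against 10 and 19. These genes, like EPCAM, were thus near 0 in HGC-27. The proteases that release EPCAM's ends differed less, with ADAM17 at -0.14 ± 0.07 and ADAM10 at 0.51 ± 0.05.

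Around CD44, genes of hyaluronan had 4 of 11 tested members higher in AGS and 4 lower (median -0.13, 18 genes listed). The hyaluronan synthase HAS3 had 968 and 865 counts for AGS against 93 and 119 in HGC-27 (3.12 ± 0.13, edgeR adjusted p = 3.73e-78), and the hyaluronan-degrading protein CEMIP was higher in AGS as well (2.69 ± 0.18). HAPLN1, which links hyaluronan to proteoglycans, had 0 and 0 counts for AGS against 3737 and 3886, at least 2530-fold lower in AGS. The hyaluronidase HYAL3 was lower (-1.77 ± 0.18).

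Of the 10 CD44 partners and splicing regulators, 8 were tested, 6 higher in AGS and 2 lower, with a median of 1.18. Among the proteins that tie CD44's tail to actin, ezrin (EZR) had 25299 and 21129 counts for AGS against 3600 and 4302 in HGC-27 (2.56 ± 0.05), whereas radixin (RDX) had 1 and 0 counts against 4890 and 6032. Moesin (MSN), the third of them, stood at 0.58 ± 0.05. The splicing regulators ESRP1 and ESRP2, which favour the longer epithelial forms of CD44, had 5290 and 5214 counts against 37 and 42 (7.06 ± 0.10), and 3684 and 3387 against 19 and 25 (7.33 ± 0.12).

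Among the enzymes that make and trim the GPI anchor, most differences were under 2-fold. Of 29 genes 28 were tested, 13 higher in AGS and 9 lower, with a median of 0.17, and 3 differed more than 2-fold: PGAP2 (2.03 ± 0.12), PIGA (1.04 ± 0.12) and PIGN (-1.12 ± 0.09). PGAP3 stood at 0.90 ± 0.16. Other carcinoma surface antigens had 10 of 14 tested members higher in AGS and 4 lower, with a median of 1.94 (17 genes listed). CDH17, an intestinal cadherin, had 8085 and 8182 counts for AGS against 1 and 0 in HGC-27. NECTIN4, an adhesion protein, had 610 and 537 against 0 and 0 (at least 384-fold higher in AGS), and the mucin MUC13 5810 and 5761 against 28 and 44 (7.34 ± 0.10). The growth factor receptor ERBB3 stood at 5.26 ± 0.09.

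**Figure D5:**
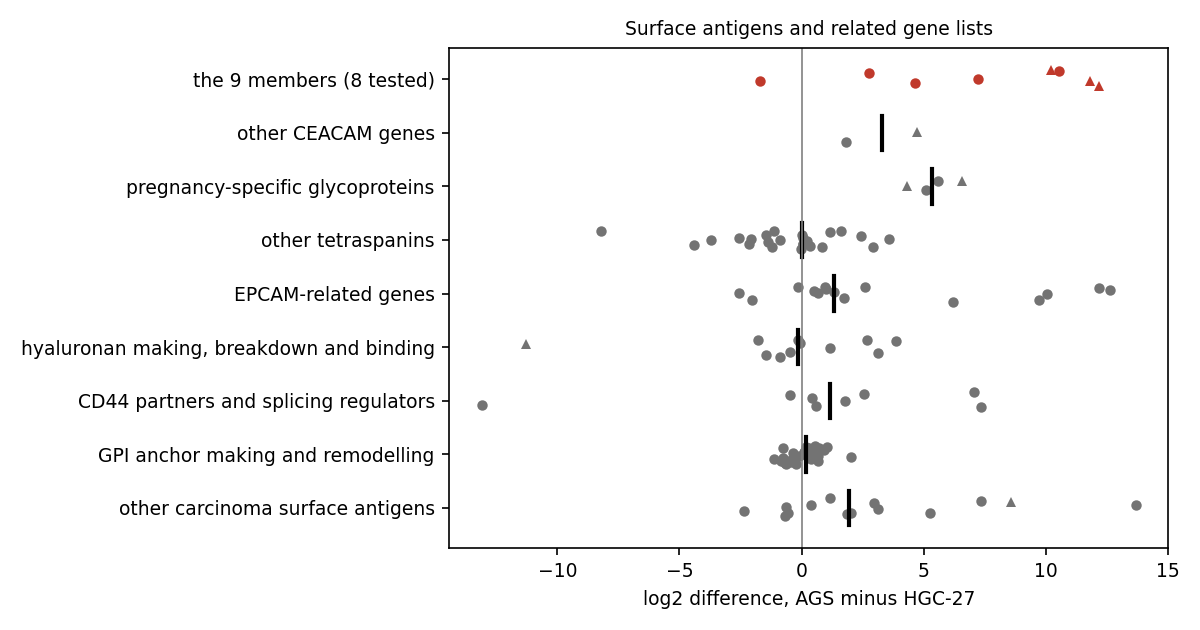
The log2 difference of AGS minus HGC-27 for the tested genes of each list, with 1 symbol per gene, a black bar at the median of each related list and triangles at the bound for genes with 0 counts in 1 line. The tested members (red) reach from -1.68 to a bound of 12.2, while the GPI anchor enzymes lie between -1.12 and 2.03.

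Genes with the most similar pattern were found by the Euclidean distance of centred log2 CPM over the 4 libraries, among 11155 protein-coding genes with a mean of at least 100 counts. With 4 libraries the pattern is mostly the line difference. For genes at or near 0 in HGC-27 the distance depends on the 0.5 CPM added before the log. This holds for CEACAM1, EPCAM and TSPAN1 too, which stood at 0.28 to 0.691 CPM in HGC-27. CEACAM1 was closest to CLDN4 (distance 0.0557), H2AFJ (0.095) and PLPP2 (0.114). CEACAM5 was closest to TMPRSS4 (0.035), PLA2G2A (0.072) and REG1A (0.134), and CEACAM6 to INAVA (0.154), CDH17 (0.173) and SPINT1 (0.244). EPCAM's nearest genes were GNAS (0.126), CDH17 (0.128) and INAVA (0.152). TSPAN8 was nearest to LAD1 (0.136), LGR5 (0.141) and KIAA0040 (0.148), and TSPAN1 to NIPAL1 (0.218), SQOR (0.326) and ITPKC (0.329). CD24 was nearest to MYOF (0.0279), DDX60 (0.0386) and CD55 (0.0481), and CD44 to NDC80 (0.0368), MTX3 (0.0379) and MPLKIP (0.0398).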

How the data were processed

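RNA was isolated with TRIzol, and an NEB protocol gave the libraries, per the labels' protocols. Reads were aligned with HISAT2 and counted with featureCounts, per the submitters' processing notes, which name the build hg18; versions, strand and treatment of reads with several places were not found in these sources. The authors deposited whole-number raw counts of each gene in the 4 libraries. Start and end of all 9 genes equal GENCODE release 29, so the printed coordinates are GRCh38. Members and lists were chosen with earlier results of these data known. TPM used the exonic gene length (other unit: bases) in the deposited table.

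Tests were run in edgeR 4.0.16 under R 4.3.3: filterByExpr, TMM scaling, quasi-likelihood F-tests in a model of line plus treatment, Benjamini-Hochberg adjustment, threshold 0.05. CPM use TMM-scaled library sizes, in which 3 counts are 0.104 to 0.12 CPM. The prior degrees of freedom were 396.9. Each standard error is the log2 change divided by the root of F. Ratios within a line use a prior of 0.5 counts, and intervals are exact conditional binomial (95%); intervals and floors cover counting error only. The replicate number marks the line, so libraries with the same number pair. Their deviations from the group means correlated at 0.986 in each line. With 2 libraries per treatment the value is the same for both lines by arithmetic. It is set by the line difference, so it adds no support for the pairing. The steps were tested on simulated data. DESeq2 1.42.0 and limma-voom 3.58.1 were alternatives. Promoters came from RefSeq tables and were aligned with Biopython 1.88. Genes named outside the 9 are, per list, the 4 with the largest line difference at a mean CPM of at least 1 and the 3 nearest in pattern to each member, of which 1 gene is not reported here; CLDN4, CD63, CD81, CD151, ADAM10, ADAM17, MSN, CEACAM18 and the chromosome 19 neighbours were added for their role or place, after values were seen.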

Additional observations from a re-analysis of the deposited data

Results flagged for a closer look

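CD24 had ratios of opposite sign in the lines: with estradiol over control the log2 ratio was 0.10 in AGS (counting interval 0.07 to 0.14) and -0.09 in HGC-27 (-0.18 to 0.01). With 1 pair of libraries per line, the difference between the lines was not tested. Of 13882 tested genes with a mean of at least 10 counts in each line, 2.36% had an interval above 0 in AGS and below 0 in HGC-27, which CD24 misses in HGC-27.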

How the results depend on the processing

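Of all tested genes, 28 were called with estradiol, against 1 in DESeq2, 0 in limma-voom and 0 with no replicate block (treatment alone); 0 of the 9 genes was called in any of these fits, with other size factors, without the filter, or on protein-coding genes alone. CEACAM6 and TSPAN8, at -0.12 in edgeR, were each at 0.03 in DESeq2 with a standard error of 3.97, and CEACAM5, at -0.25 in edgeR, was at -0.04 with the same error; the cause was not tested. Leaving out replicate 1 or 2, which leaves 1 line and no test, put CD24 at -0.09 and 0.10. All 8 tested members stayed more than 2-fold apart between the lines under other scalings, in DESeq2 and in each treatment alone (8 in each). Line differences were known when the list was made, so this count adds no support. Intervals that exclude 0 numbered 7 in AGS and 1 in HGC-27 under library totals and DESeq2 size factors too. In the main setting, 15.8% of tested genes with a mean of at least 200 counts in AGS had an interval below 0 and 14.7% above. In HGC-27 these shares were 15.9% and 10.6%. Such intervals cover counting error only. TMM put the median line difference of all genes at -0.104 and DESeq2 size factors at -0.094. With 1 library per arm within a line, separate cultures, library preparation and estradiol cannot be told apart.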

Other observations

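Some values beside the 9 genes were noticed after they were seen. GNAS, the stimulatory G protein subunit whose pattern was nearest to EPCAM, had 26573 and 24057 counts in AGS with estradiol and AGS control, against 23 and 30 in HGC-27, although most cells express it. In the stretch of chromosome 19 around the CEACAM cluster, line differences ran both ways: the cytochrome gene CYP2S1 had 2818 and 2810 counts for AGS against 69 and 83 in HGC-27, while the receptor kinase gene AXL had 93 and 45 counts for AGS against 928 and 1085 in HGC-27. TGFB1 between them and the CEACAM genes had 1996 and 1839 counts against 2296 and 2603.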
